A study of Mus musculus with 39 samples.

Results

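The Kruppel-like factors are zinc-finger transcription factors that bind CACCC boxes and GC-rich sites, and their genes were described here in plaque tissue of atherosclerotic mice. The 8 genes Klf2, Klf3, Klf4, Klf6, Klf7, Klf9, Klf10 and Klf13 were selected by symbol, with their earlier results in these libraries known, out of 17 Klf symbols among 24062 genes in the files. All 8 passed the filter on low counts, which left 10411 genes for testing. Aortic root sections 6 µm thick were laser-captured in areas rich in CD68, a macrophage protein, and the RNA was amplified as whole transcriptome cDNA before sequencing. All groups were female Apoe-/- mice (B6.129P2-Apoe<tm1Unc>), which lack apolipoprotein E and develop plaques, kept on a high-cholesterol diet for 12 weeks and 20 weeks old when treatment began. Each mouse had 4 intravenous injections over 7 days and was killed 24 hours after the last.

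By their labels 10 samples are TRAF6i-HDL, 10 are mTORi-HDL, 9 are S6K1i-HDL and 10 are controls given PBS. The inhibitors were loaded in high-density lipoprotein (HDL) particles at 5 mg/kg each. The protocol names the arms otherwise, as CD40-HDL and as HDL with rapamycin, an mTOR inhibitor, or with PF-4708671, an S6K1 inhibitor, and its placebo is saline; the labels do not state that CD40-HDL is TRAF6i-HDL. It also names an empty HDL particle, with which none of the 39 samples is labelled, so an inhibitor and its carrier cannot be told apart in a comparison with PBS. TRAF6 is an adaptor that carries signals from CD40 and Toll-like receptors. The kinase mTOR integrates nutrient and growth signals, and S6K1 is a kinase that the mTOR complex activates. The labels do not tie samples to mice, so the p-values measure the spread between these samples. A lower level in cut tissue can come from fewer cells of a type or from less RNA per cell, and these cannot be told apart.

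KLF2 and KLF4 are induced in endothelial cells by laminar flow through the MEK5-ERK5-MEF2 pathway, hold the vessel wall in a quiescent state and restrain inflammatory activation of monocytes and macrophages. KLF3 is a repressor that acts through CtBP proteins, and KLF6 promotes inflammatory gene expression in macrophages. KLF9 is a direct target of the glucocorticoid receptor, KLF10 was found as an early gene induced by TGF-beta, and KLF13 drives late expression of the chemokine CCL5 in T lymphocytes. KLF7 is a close relative of KLF6.

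The 250 bases before the start site are shown for Klf2 and Klf3, whose levels differed most clearly between S6K1i-HDL and PBS, for Klf4, the close relative of Klf2, and for Klf9, which varied from library to library with some glucocorticoid-induced genes. Sequences are from RefSeq on build GRCm38.p6 and are read 5′ to 3′ on the strand of the gene: Klf2 at chr8:72318812-72319061 on the plus strand, Klf3 at chr5:64803271-64803520 on the plus strand, Klf4 at chr4:55532476-55532725 on the minus strand and Klf9 at chr19:23140976-23141225 on the plus strand. Capitals mark 3 kinds of match, searched on both strands: CACCC, the box that Kruppel-like factors bind, which reads as GGGTG on the other strand; TAAACA, a core that FOXO factors bind, which reads as TGTTTA on the other strand; and the MEF2 motif.
Klf2 promoter: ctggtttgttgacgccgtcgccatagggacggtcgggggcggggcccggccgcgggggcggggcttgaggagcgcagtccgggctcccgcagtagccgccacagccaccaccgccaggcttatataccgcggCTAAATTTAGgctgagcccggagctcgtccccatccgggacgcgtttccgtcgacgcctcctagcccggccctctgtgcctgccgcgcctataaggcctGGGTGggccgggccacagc
Klf3 promoter: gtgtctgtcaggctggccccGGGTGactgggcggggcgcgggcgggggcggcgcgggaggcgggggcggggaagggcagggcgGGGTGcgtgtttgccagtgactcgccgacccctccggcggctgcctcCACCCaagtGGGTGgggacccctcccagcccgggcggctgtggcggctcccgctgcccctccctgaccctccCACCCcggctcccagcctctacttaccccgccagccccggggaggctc
Klf4 promoter: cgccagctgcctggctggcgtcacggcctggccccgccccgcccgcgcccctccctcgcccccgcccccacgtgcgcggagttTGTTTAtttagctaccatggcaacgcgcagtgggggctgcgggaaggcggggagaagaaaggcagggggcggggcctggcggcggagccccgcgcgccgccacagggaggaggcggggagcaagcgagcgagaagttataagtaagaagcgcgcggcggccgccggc
Klf9 promoter: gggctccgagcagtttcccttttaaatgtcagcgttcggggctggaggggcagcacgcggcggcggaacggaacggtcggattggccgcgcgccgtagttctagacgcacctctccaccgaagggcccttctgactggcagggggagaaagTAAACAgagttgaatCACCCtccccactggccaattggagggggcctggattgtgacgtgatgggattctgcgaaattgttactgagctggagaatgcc
Of 8 genes, 7 had a promoter in the table and Klf10 had none. The Klf2 window held 1 match to the MEF2 motif, CTAAATTTAG at 118 to 109 bases before the start, a motif found in 2.92% of 32851 promoters of the same length. The other 6 windows held 0. Klf3 held 5 CACCC boxes, Klf7 held 3, and Klf2, Klf9 and Klf13 held 1 each. The box is common, at 1 or more in 52% of all promoters, but only 0.667% held 5 or more. The Klf3 window was 78.4% G and C, against a median of 52.4% over all promoters, and these shares are not matched for that. The FOXO core stood once each in the Klf4 and Klf9 windows and in 12% of all promoters. GGGCGG, a GC box that can overlap with itself and is not in capitals, was found 6 times in Klf3, 4 times in Klf4 and in 32.7% of all promoters. These are matches of letters in a window, and binding was not measured.

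Klf6 was by far the most abundant of the 8. Levels are CPM, counts scaled to a common library size, after TMM scaling for composition. Over 39 libraries Klf6 averaged 332 CPM, above the mean of 98% of tested genes, and per kilobase of merged exons it stood at 78.5 CPM. On the same per-kilobase scale Klf2 stood at 15.6, Klf3 at 13.97, Klf4 at 13.8, Klf13 at 7.21, Klf9 at 6.62, Klf10 at 5.34 and Klf7 at 1.22. Klf2, Klf3 and Klf4 were thus close in level, and Klf7 was the lowest. Of 9 other Klf symbols in the files, Klf8, Klf11, Klf12 and Klf15 passed the filter. Klf14 had 0 counts in all 39 libraries, Klf17 had 2 counts in all and Klf1 had 3.

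Depth ran from 50091 to 6833491 counts in genes with a median of 2356039, and 3 libraries were under 200000: PBS replicate 9, TRAF6i-HDL replicate 7 and S6K1i-HDL replicate 1. In those 3 libraries 1 read is worth a large step in CPM. Rn45s, which encodes ribosomal RNA, took a median share of 41.8% of counts in S6K1i-HDL (between 14.5% and 47.5%), 25.6% in mTORi-HDL (between 6.71% and 32.5%), 15.9% in TRAF6i-HDL (between 2.59% and 28.3%) and 7.49% in PBS (between 2.28% and 30.0%). In the order of the series, S6K1i-HDL replicates 7 to 9 do not follow replicates 1 to 6, nor do mTORi-HDL replicates 5 to 10 follow 1 to 4, and no reason is given. Macrophage genes were abundant in every library: 14 of 15 listed markers were in the files and none was at 0 throughout a group. Their summed level lay between 9448 and 14590 CPM in S6K1i-HDL, between 6519 and 18720 in mTORi-HDL, between 10020 and 24020 in TRAF6i-HDL and between 4917 and 25700 in PBS.

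**Figure D1:**
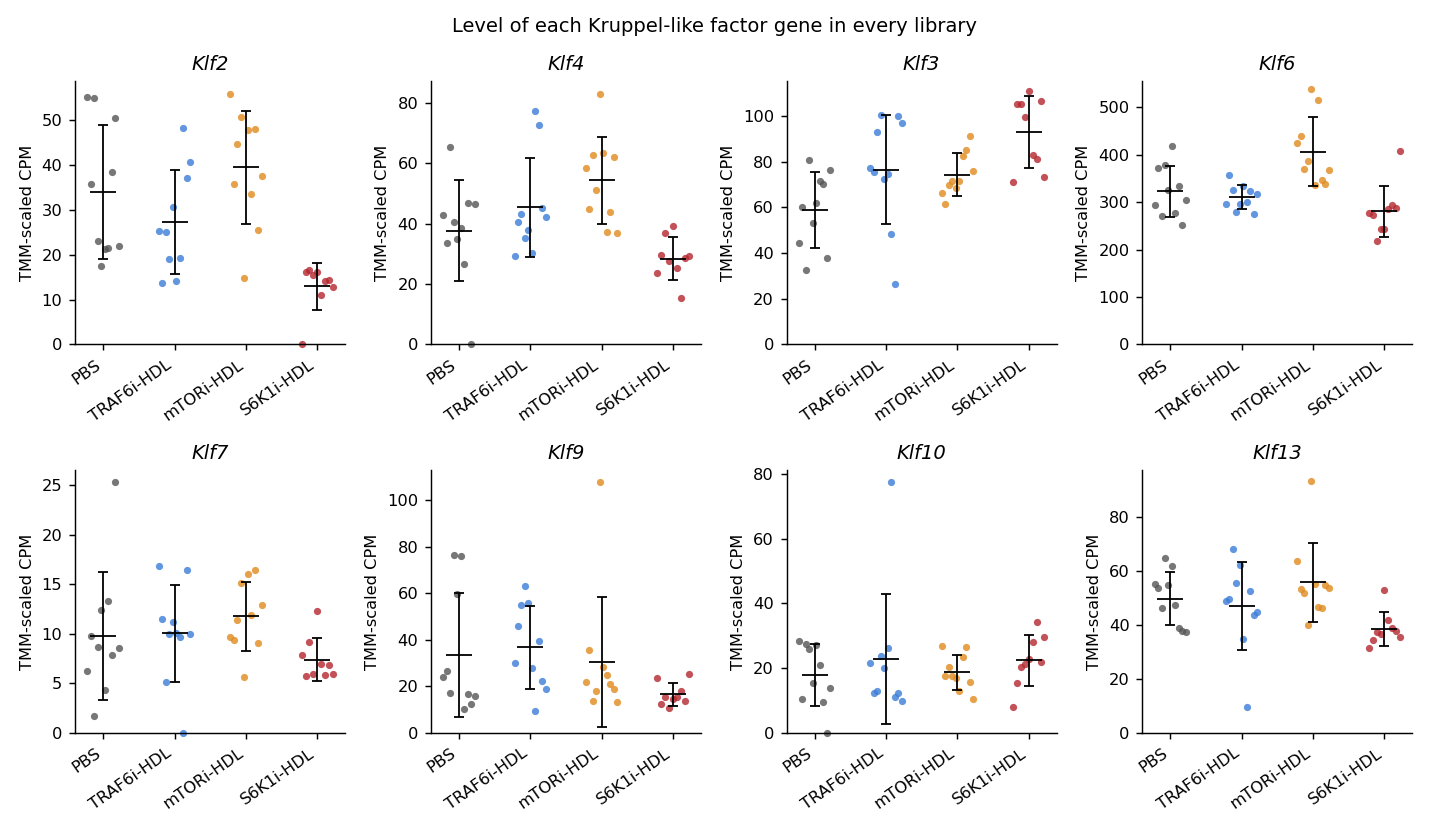
TMM-scaled CPM of each of the 8 genes (vertical axes, each from 0) in every library of the 4 groups. Points are libraries, the short bar is the group mean and the whisker 1 SD; Klf2 in S6K1i-HDL lies between 0 and 16.6, below every PBS library, and Klf3 in S6K1i-HDL lies between 71.2 and 111.

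Klf2 was low in every S6K1i-HDL library. Its CPM ran from 0 to 16.6 with a median of 14.4 in S6K1i-HDL, and from 17.5 to 55.1 with a median of 29.4 in PBS. The groups did not overlap, which was true of 0.442% of all tested genes. The single 0 was S6K1i-HDL replicate 1, a library of 118527 counts, and the other 8 libraries held between 10.96 and 16.6 CPM. Means were 13.0 ± 5.19 (SD, n = 9) against 34.0 ± 15.0 (SD, n = 10), a fitted level 2.22-fold lower, or a log2 fold change of -1.15 ± 0.24 (SE). The adjusted p was 0.00193 with edgeR's quasi-likelihood test and Benjamini-Hochberg adjustment over all tested genes.

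Klf3 moved the other way. Its CPM ran from 71.2 to 111 with a median of 99.7 in S6K1i-HDL, and from 32.6 to 80.7 with a median of 61.1 in PBS. All 9 S6K1i-HDL libraries were above the PBS mean and 7 were above the highest PBS library. The fitted level was 1.54-fold higher, with a log2 fold change of 0.62 ± 0.15 (SE) and an adjusted p of 0.00558 in the same edgeR test. Klf2 and Klf3 were the 2 genes of 8 that passed in this comparison, where 11.9% of all tested genes passed: 1 of 8 was higher, against 5.46% of tested genes, and 1 of 8 lower, against 6.47%. With so many genes passing, the count itself does not set the family apart.

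The 2 calls differed in how they moved with library composition. With the log2 share of Rn45s as a covariate, which differs by group, Klf2 stood at -0.97 ± 0.30 (adjusted p = 0.129) and Klf3 at 0.18 ± 0.16 (adjusted p = 0.709), and 0 of 8 genes passed. All 1242 calls of the comparison fell to 38 in that fit. Over the alternatives tried, the adjusted p of Klf2 ranged from 0.000363 to 0.153 and its log2 fold change from -1.21 to -0.96. That of Klf3 ranged from 0.000357 to 0.709. Within groups Klf3 was higher where the Rn45s share was higher (r = 0.563 over 39 libraries with group means removed), while Klf2 showed little relation (r = 0.0532). Over the 36 libraries of at least 200000 counts, Klf2 was lower where more genes were detected (r = -0.372) and where depth was greater (r = -0.381), and Klf3 was higher (r = 0.689 and 0.616). Over all 39 libraries the sign for Klf2 was the other way (r = 0.288 and 0.314), and Klf3 was again higher (r = 0.614 and 0.586). S6K1i-HDL was the deepest group, with a median of 4742543 counts against 1340382 in PBS. With detected genes as the covariate Klf2 stood at -0.99 (adjusted p = 0.0214) and Klf3 at 0.43 (adjusted p = 0.104), so the Klf3 call was lost in that fit too. These libraries share depth and composition, and the r describes them only. S6K1i-HDL replicate 9, with 14.5% of its counts in Rn45s, held 12.8 CPM of Klf2, within the range of its group. That is 1 library, and as the Rn45s share differs by group, group and composition cannot be told apart here.

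**Figure D2:**
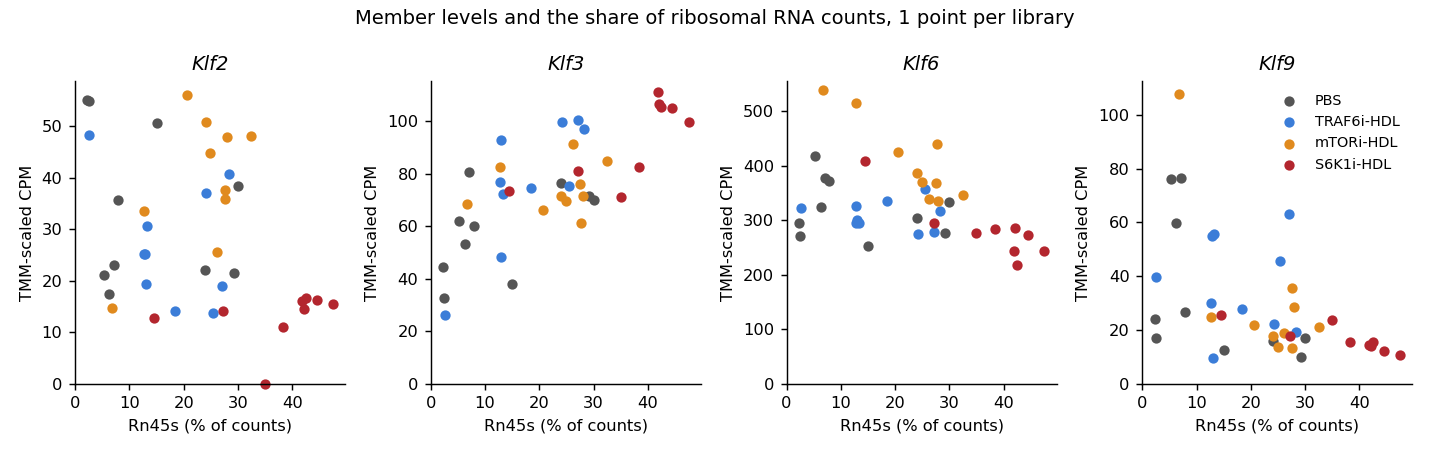
TMM-scaled CPM of Klf2, Klf3, Klf6 and Klf9 (vertical axes) against the share of counts in Rn45s in percent (horizontal axes), 1 point per library, coloured by group. Klf3 is higher where the share is higher. S6K1i-HDL libraries run from 14.5% to 47.5% Rn45s and from 0 to 16.6 CPM of Klf2.

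Klf2 was at a like level in the sets of S6K1i-HDL libraries that the series lists apart. Mean CPM was 12.6 ± 6.50 (SD, n = 6) in replicates 1 to 6 and 13.7 ± 0.86 (SD, n = 3) in replicates 7 to 9. Against PBS the log2 fold change was -1.12 in the first set (adjusted p = 0.0044 in edgeR) and -1.21 ± 0.33 in the second (adjusted p = 0.153). Klf3 stood at 0.67 (adjusted p = 0.00633) and 0.49 (adjusted p = 0.384). Of all tested genes 12.1% passed in the first set and 0.00861% in the second. The second set has 3 libraries and a median Rn45s share of 27.2%, against 42.1% in the first, and the number of libraries and their composition cannot be told apart here.

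Klf4 had the same direction as Klf2 at a smaller size and did not pass against PBS. Its CPM ran from 15.3 to 39.2 with a median of 28.6 in S6K1i-HDL, and from 0 to 65.2 with a median of 39.5 in PBS, where the 0 was the library of 50091 counts. The log2 fold change was -0.48 ± 0.19 (SE), with an adjusted p of 0.0798 in edgeR's test. Of 9 S6K1i-HDL libraries 8 were below the PBS mean, and the ranges overlapped.

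In mTORi-HDL the same pair leaned upward. Klf4 ran from 37.0 to 83.0 CPM with a median of 54.8, and its log2 fold change against PBS was 0.43 ± 0.18 (adjusted p = 0.18 in edgeR). Klf2 ran from 14.7 to 56.0 CPM with a median of 41.2, at a log2 fold change of 0.31 ± 0.22 (adjusted p = 0.469). Neither passed the threshold. In TRAF6i-HDL, Klf2 ran from 13.6 to 48.4 CPM (median 25.2) and Klf4 from 29.4 to 77.4 (median 41.4), with log2 fold changes against PBS of -0.25 ± 0.23 and 0.04 ± 0.19 (adjusted p of 0.733 and 0.974).

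The order of group means for Klf2 was therefore mTORi-HDL (39.5), PBS (34.0), TRAF6i-HDL (27.3) and S6K1i-HDL (13.0 CPM). Only the step down to S6K1i-HDL passed between neighbours. For Klf4 the order was mTORi-HDL (54.3), TRAF6i-HDL (45.4), PBS (37.6) and S6K1i-HDL (28.4 CPM), and no pair of neighbours passed.

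Most calls in the family came between mTORi-HDL and S6K1i-HDL, whose targets are steps of one signalling chain and which share the HDL carrier. Klf2, Klf4, Klf6 and Klf13 were higher in mTORi-HDL: 4 of 8 passed, all in this direction, where 3.5% of all tested genes passed as higher, 2.68% as lower and 6.18% in either direction. Klf2 differed most, 2.75-fold, with a log2 fold change of 1.46 ± 0.23 (SE) and an adjusted p of 1.94e-05 in edgeR's test, and 9 of 10 mTORi-HDL libraries were above the highest S6K1i-HDL library. Klf4 was 1.88-fold higher (0.91 ± 0.18, adjusted p = 0.000514), with 8 of 10 above the highest S6K1i-HDL library. Klf6 was 1.45-fold higher (0.53 ± 0.12, adjusted p = 0.00428), with 4 of 10 above it. Each of these 3 genes was above the S6K1i-HDL mean in 10 of 10 mTORi-HDL libraries. Klf3 leaned the other way, at -0.34 ± 0.14 (adjusted p = 0.156 in edgeR), and was below the S6K1i-HDL mean in 10 of 10 mTORi-HDL libraries. It passed with DESeq2 (adjusted p = 0.0476), with limma-voom (0.00978) and with only the 2 groups (0.0487), over a range of 0.00978 to 0.899 in all alternatives. DESeq2 called 5 of 8 members in this comparison and limma-voom 6.

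The difference in Klf2, Klf4 and Klf6 passed also with the Rn45s share as a covariate, at 1.41, 0.82 and 0.46 (adjusted p of 4.9e-05, 0.00104 and 0.00644). Between mTORi-HDL replicates 1 to 4 and S6K1i-HDL replicates 1 to 6, where 2.85% of tested genes passed, Klf2 stood at 1.70 (adjusted p = 0.000258), Klf6 at 0.69 (0.0126) and Klf4 at 0.81 (0.0543). Between mTORi-HDL replicates 5 to 10 and S6K1i-HDL replicates 7 to 9, where 1.12% passed, Klf2 stood at 1.34 (adjusted p = 0.0296), Klf4 at 1.17 (0.0173) and Klf6 at 0.32 (0.547). Klf2 was thus the gene of the 8 that passed in both pairs of sets. Over all alternatives the adjusted p ranged from 1.52e-07 to 0.0296 for Klf2, from 4.4e-05 to 0.0543 for Klf4 and from 6.54e-05 to 0.547 for Klf6.

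Klf13 was the weakest of the 4 calls. It ran from 40.1 to 93.4 CPM (median 53.5) in mTORi-HDL and from 31.6 to 53.2 (median 37.4) in S6K1i-HDL, a log2 fold change of 0.50 ± 0.15 (adjusted p = 0.0278 in edgeR). The call was lost without mTORi-HDL replicate 5, the library with 93.4 CPM (0.40, adjusted p = 0.0774), with DESeq2 size factors (0.44, adjusted p = 0.0519) and with the Rn45s covariate (0.39, adjusted p = 0.0761). Over all alternatives its adjusted p ranged from 0.0125 to 0.366. Against PBS, S6K1i-HDL stood at -0.36 ± 0.15 (adjusted p = 0.111), and TRAF6i-HDL and mTORi-HDL stood at -0.02 and 0.14 (adjusted p of 0.993 and 0.652).

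**Figure D3:**
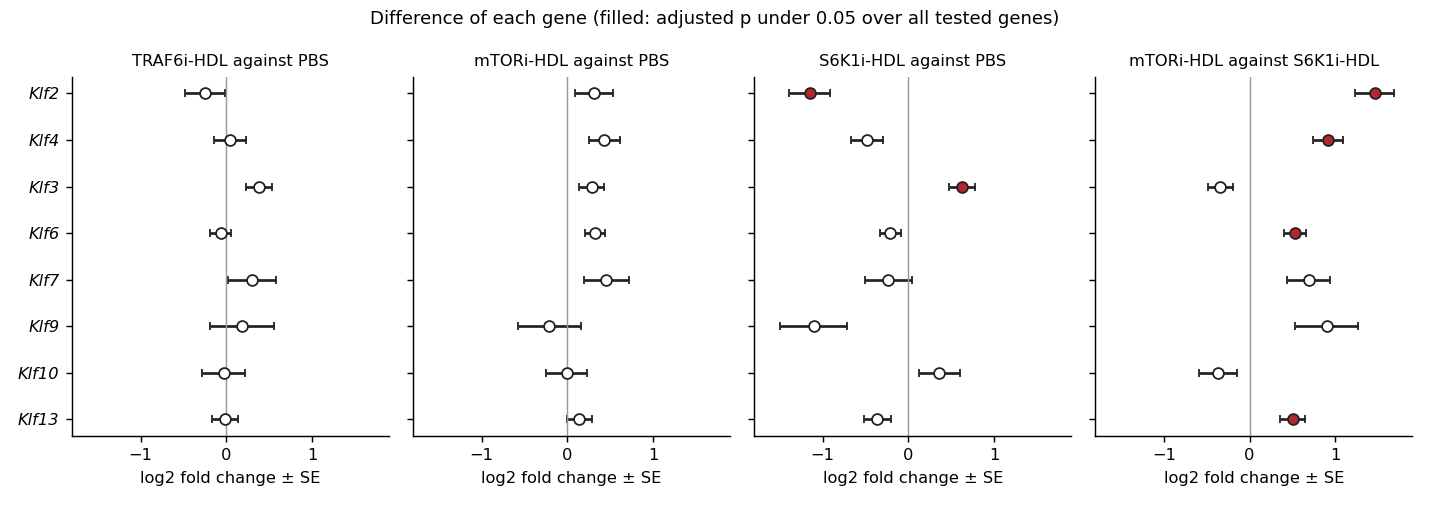
Log2 fold change of each gene with its standard error (horizontal axes) in the comparisons of TRAF6i-HDL, mTORi-HDL and S6K1i-HDL with PBS and of mTORi-HDL with S6K1i-HDL. Filled points have an adjusted p under 0.05 over all tested genes; they are Klf2 and Klf3 in S6K1i-HDL against PBS and Klf2, Klf4, Klf6 and Klf13 in mTORi-HDL against S6K1i-HDL.

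Klf6 ranges overlapped between all groups, and it passed in 1 of 6 comparisons, mTORi-HDL against S6K1i-HDL. It ran from 336 to 539.8 CPM (median 378) in mTORi-HDL, from 253 to 419 (median 315) in PBS, from 276 to 358 (median 309) in TRAF6i-HDL and from 219 to 409 (median 277) in S6K1i-HDL. All 10 mTORi-HDL libraries were above the PBS mean, yet the log2 fold change of 0.32 ± 0.12 did not pass (adjusted p = 0.141 in edgeR). TRAF6i-HDL was the tightest group, at 311 ± 26.04 CPM (SD, n = 10), and 9 of its 10 libraries were below the lowest mTORi-HDL library. That difference, -0.39 ± 0.12, had an adjusted p of 0.0639. It passed without PBS replicate 3, PBS replicate 9 or S6K1i-HDL replicate 9 (adjusted p of 0.0483, 0.0441 and 0.0496), with DESeq2 (0.0322), with limma-voom (0.0376) and with the Rn45s covariate (0.0165), and over all alternatives the adjusted p ranged from 0.0165 to 0.11.

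Between TRAF6i-HDL and mTORi-HDL 0 of 8 genes passed in edgeR, where 2.92% of tested genes passed, and 3 of 8 had an unadjusted p under 0.05. DESeq2 called 1 (Klf6) and limma-voom 2 (Klf2 and Klf6). Klf2 stood at -0.56 ± 0.22 (adjusted p = 0.158) and Klf4 at -0.39 ± 0.18 (adjusted p = 0.238). Both were lower in TRAF6i-HDL in 8 of 10 libraries when set against the mTORi-HDL mean.

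TRAF6i-HDL against S6K1i-HDL gave 1 call of 8, Klf2, where 1.59% of tested genes passed. Klf2 was 1.86-fold higher in TRAF6i-HDL, at 0.90 ± 0.24 (adjusted p = 0.0355 in edgeR), with 10 of 10 libraries above the S6K1i-HDL mean and 8 above its highest library. The call is a narrow one. It was lost without any of TRAF6i-HDL replicates 3, 5, 8, 9 or 10 or S6K1i-HDL replicates 2, 3, 4, 5, 6 or 8, with the adjusted p between 0.0243 and 0.0742 over all libraries left out in turn. Over the other alternatives it ranged from 0.0155 to 0.145. Klf9 stood at 1.29 ± 0.38 (adjusted p = 0.0688), Klf4 at 0.52 ± 0.19 (0.127), Klf7 at 0.54 ± 0.26 (0.311) and Klf13 at 0.35 ± 0.15 (0.239). Klf9 passed with DESeq2 (adjusted p = 0.0407) and limma-voom (0.00531), with only the 2 groups (0.00107), and without mTORi-HDL replicate 5 (0.0219) or S6K1i-HDL replicate 9 (0.0481), over a range of 0.00107 to 0.303 in all alternatives.

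Against PBS, TRAF6i-HDL gave 0 calls of 8 in edgeR, where 2 genes, or 0.0192% of those tested, passed, and DESeq2 and limma-voom also called 0 of 8. Klf3 alone had an unadjusted p under 0.05, at a log2 fold change of 0.38 ± 0.15 (adjusted p = 0.327), with a range of 26.4 to 100.5 CPM and a median of 76.2. For mTORi-HDL against PBS, where 1.64% of tested genes passed, 0 of 8 passed in edgeR, DESeq2 and limma-voom, and 2 of 8, Klf4 and Klf6, had an unadjusted p under 0.05. Klf3 ran from 61.4 to 91.2 CPM in mTORi-HDL (median 71.6), above the PBS mean in 10 of 10 libraries, at 0.28 ± 0.15 (adjusted p = 0.31). The 3 inhibitor groups share the PBS libraries, so their differences from PBS are not independent.

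Klf9 varied widely within groups other than S6K1i-HDL. It ran from 10.1 to 76.4 CPM (median 20.6) in PBS, from 9.68 to 63.2 (median 34.9) in TRAF6i-HDL, from 13.5 to 107.7 (median 21.6) in mTORi-HDL and from 10.7 to 25.6 (median 15.4) in S6K1i-HDL. In PBS the 3 highest were replicates 4, 5 and 6, at 76.4, 59.8 and 76.2 CPM, with the other 7 at or below 26.8. In mTORi-HDL replicate 5 stood alone at 107.7, and in S6K1i-HDL no library was above 25.6. The log2 fold change of S6K1i-HDL against PBS was -1.11 ± 0.39, a fitted level 2.15-fold lower that did not pass (adjusted p = 0.0568 in edgeR). All 9 S6K1i-HDL libraries were below the PBS mean, which the 3 high libraries raise, and 7 of 9 were below the PBS median.

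The call on Klf9 depended on the fit. It passed with DESeq2 (-1.05, adjusted p = 0.0455), with limma-voom (-0.90, 0.0356) and with only the 2 groups fitted (-1.10, 0.0343). It also passed without PBS replicate 7, 8 or 10, mTORi-HDL replicate 5 or S6K1i-HDL replicate 9, with the adjusted p between 0.0176 and 0.163 over all libraries left out in turn. With the Rn45s covariate it stood at -0.08 (adjusted p = 0.98), and within groups Klf9 was lower where the Rn45s share was higher (r = -0.484 over 39 libraries).

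Klf9 went with some glucocorticoid-induced genes from library to library, and not with others. With group means removed, the 3 tested genes most like it over 39 libraries were Epas1 (r = 0.769), Mt1 (r = 0.768) and Zbtb16 (r = 0.768). Epas1 encodes a hypoxia-inducible factor, Mt1 a metal-binding metallothionein and Zbtb16 a zinc-finger factor, and the last 2 are induced by glucocorticoids. In the 36 libraries of at least 200000 counts the r was 0.71, 0.788 and 0.772. On the glucocorticoid list Mt2 had an r of 0.753, Fkbp5 of 0.725 and Tsc22d3 of 0.704 in those 36, so 5 of 11 genes were above 0.7. The other 6 were Cebpd at 0.394, Ddit4 at 0.164, Sgk1 at 0.14, Per1 at 0.126, Errfi1 at 0.0039 and Nr3c1, the receptor itself, at -0.123. Over all 39 libraries Fkbp5 had an r of 0.393. These libraries share depth and RNA composition, and the r describes them only.

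PBS replicates 4, 5 and 6, high in Klf9, held 294, 133 and 145 CPM of Mt1 and 337, 209 and 187 CPM of Tsc22d3. PBS replicates 7, 8 and 10, low in Klf9, held 18.4, 28.3 and 22.3 CPM of Mt1 and 55.8, 41.3 and 44.3 CPM of Tsc22d3. PBS replicate 3 broke the pattern, with 17.2 CPM of Klf9 beside 215 of Mt1 and 436 of Tsc22d3. PBS replicates 1 and 2 held 24.0 and 26.8 CPM of Klf9, 24.0 and 47.5 of Mt1 and 81.8 and 88.15 of Tsc22d3. PBS replicate 9, a small library, held 12.6, 63.2 and 75.8 CPM of these genes. mTORi-HDL replicate 5 was the highest of its group in Klf9 (107.7), Mt1 (189) and Tsc22d3 (198 CPM). The libraries differed in composition too. Rn45s took 7.08%, 6.27% and 5.26% of counts in PBS replicates 4, 5 and 6, and 29.2%, 30.0% and 24.0% in replicates 7, 8 and 10. It took 2.28%, 7.89% and 2.49% in PBS replicates 1, 2 and 3, and 6.71% in mTORi-HDL replicate 5, the lowest of its group. The part of composition in this pattern was not tested.

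**Figure D4:**
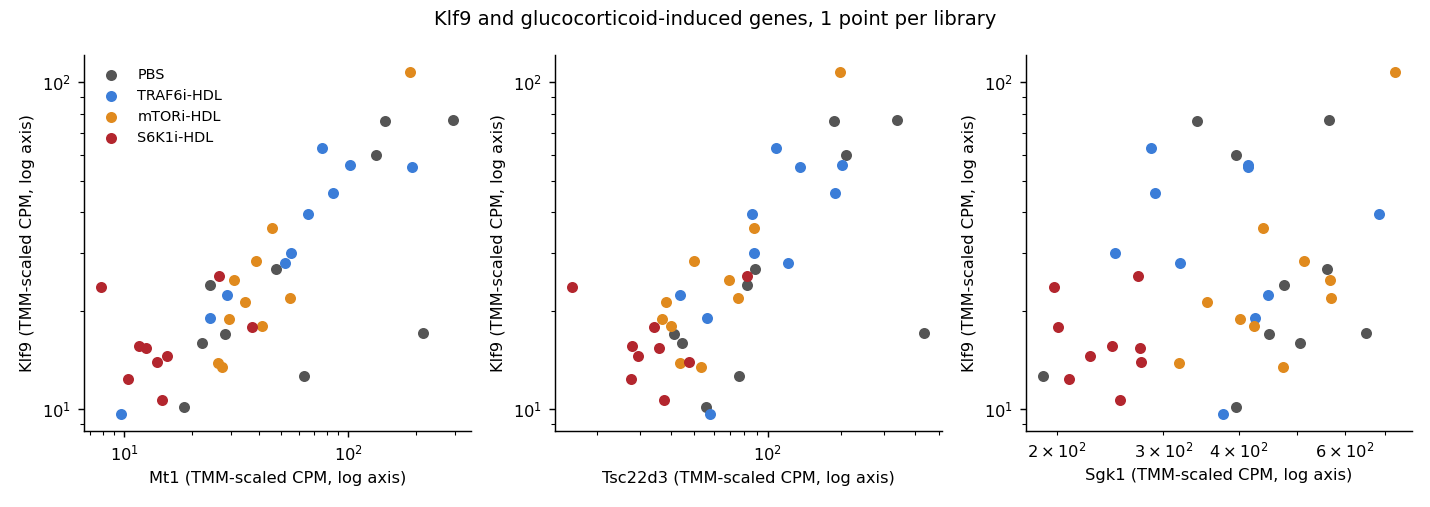
Klf9 (vertical axes) against Mt1, Tsc22d3 and Sgk1 (horizontal axes), all as TMM-scaled CPM on log axes, 1 point per library, coloured by group. Libraries high in Klf9 are mostly high in Mt1 and Tsc22d3 as well (r = 0.768 and 0.658 over 39 libraries), while Sgk1 shows little relation (r = 0.207).

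Of 11 tested genes of the glucocorticoid response, 5 were lower in S6K1i-HDL than in PBS and 0 higher, beside 6.47% and 5.46% of all tested genes. The median log2 fold change of the list was -0.93, beside 0.00315 over all tested genes. Sgk1, a kinase of salt and growth control, fell by 0.93 on the log2 scale (SE 0.17, adjusted p = 0.000296), from 453 ± 131 (SD, n = 10) to 240 ± 32.2 CPM (SD, n = 9). Tsc22d3, which encodes the anti-inflammatory protein GILZ, fell by 1.959 (SE 0.42, adjusted p = 0.00322), and Mt1 fell by 2.42 (SE 0.53, adjusted p = 0.00336). Nr3c1 stood at -0.04 (adjusted p = 0.93). With the Rn45s covariate 0 of 11 passed and the median was -0.53; without the 3 small libraries the count was again 5 lower.

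In mTORi-HDL against S6K1i-HDL 3 of 11 were higher and 0 lower, beside 3.5% and 2.68% of all tested genes, with a median of 0.987. The 3 were Sgk1 (0.99 ± 0.16, adjusted p = 7.3e-05), Errfi1 (1.04 ± 0.24, 0.00415) and Per1 (1.09 ± 0.33, 0.0359). The first 2 encode a kinase and an inhibitor of the EGF receptor, and the third a clock protein. The count was 3 higher also with the Rn45s covariate. TRAF6i-HDL against S6K1i-HDL, where 1.59% of all tested genes passed in either direction, had 4 of 11 higher. Among them were Fkbp5 (2.26 ± 0.47, adjusted p = 0.0113), Sgk1 (0.69 ± 0.17, 0.022) and Mt2 (2.62 ± 0.62, 0.0262). Against PBS, TRAF6i-HDL had 0 of 11 past the threshold in edgeR, DESeq2 and limma-voom, with 1 at an unadjusted p under 0.05. mTORi-HDL had 0 in edgeR, 2 in DESeq2 and 1 in limma-voom, with 5 at an unadjusted p under 0.05.

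Klf7 and Klf10 gave no call in edgeR in any of the 6 comparisons. Over 39 libraries Klf7 averaged 9.83 CPM, above the mean of 30.6% of tested genes, and Klf10 20.4 CPM, above that of 53.4%. Klf7 had medians of 6.83 CPM in S6K1i-HDL, 11.7 in mTORi-HDL, 10.03 in TRAF6i-HDL and 8.61 in PBS, and its largest difference was 0.69 ± 0.25 between mTORi-HDL and S6K1i-HDL (adjusted p = 0.0873). That difference passed with limma-voom (adjusted p = 0.00924), with the Rn45s covariate (0.00913), with only the 2 groups (0.029), and without TRAF6i-HDL replicate 8, S6K1i-HDL replicate 5 or mTORi-HDL replicate 5 (0.0484, 0.0426 and 0.0489). Over all alternatives the adjusted p ranged from 0.00913 to 0.473. Klf10 had medians of 22.02, 17.5, 16.5 and 18.1 CPM in the same order of groups, with log2 fold changes between -0.39 and 0.36 over the 6 comparisons. Between S6K1i-HDL and PBS the log2 fold change was 0.36 ± 0.24 (SE) for Klf10 and -0.24 ± 0.28 for Klf7.

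Members did not vary as 1 block within groups. With group means removed, Klf9 went with Klf13 (r = 0.663 over 39 libraries, 0.689 over the 36 larger ones) and with Klf6 (0.58 and 0.588), and Klf3 went with Klf7 (0.566 and 0.765). Klf2 was inverse to Klf9 (-0.353 and -0.479), and Klf4 to Klf7 (-0.471 and -0.531). Klf2 and Klf4, which lay low together in S6K1i-HDL, showed little relation from library to library within groups (-0.0514 and 0.276). The r of 0.72 between Klf4 and Klf10 rested on the small libraries, since it was -0.27 over the other 36.

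The genes most like each of the other members, by the same measure over 39 libraries, were for Klf3 Sec24b (r = 0.863), Arhgdia (0.848) and Plekho2 (0.844), for Klf7 Lrba (0.847), Gna11 (0.843) and Mycbp2 (0.842), and for Klf6 Mcl1 (0.759), Ddx3x (0.712) and Ptp4a2 (0.711). These held in the 36 larger libraries, at 0.898, 0.838 and 0.835, at 0.835, 0.843 and 0.85, and at 0.742, 0.689 and 0.689. Klf2 was most like Pnpla8 (0.869), Pdzrn3 (0.864) and Tdrd7 (0.862), and Klf13 most like Manea (0.871), Gpkow (0.868) and Gng2 (0.853). These fell to between 0.506 and 0.62 in the larger libraries. For Klf4 the leading genes were Nod1 (0.932), Polr2a (0.926) and Ddx21 (0.92), and for Klf10 Ndufs4 (0.872), Vdac3 (0.871) and Osbp (0.861), which fell to between 0.103 and 0.491.

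Endothelial genes bear on Klf2 and Klf4, which endothelial cells express strongly. The 14 endothelial markers summed to between 331.5 and 695.8 CPM in S6K1i-HDL, between 578.1 and 1058 in mTORi-HDL, between 391.3 and 921.2 in TRAF6i-HDL and between 436.9 and 808.9 in PBS, and none was at 0 throughout a group. Against PBS, 0 of 13 tested markers passed in S6K1i-HDL in edgeR, beside 11.9% of all tested genes. Of the 13, 7 had an unadjusted p under 0.05, and the median log2 fold change was -0.116. DESeq2 called 0, limma-voom called 1 as higher, and edgeR without the libraries under 200000 counts called 1 as lower. Klf2 had fallen by 1.15 in the same comparison. Between mTORi-HDL and S6K1i-HDL, 5 of 13 markers were higher and 0 lower, beside 3.5% and 2.68% of all tested genes, with a median of 0.34. They were led by Emcn (0.93 ± 0.18, adjusted p = 0.000376), Cdh5 (0.91 ± 0.17, 0.000397) and Tek (0.88 ± 0.20, 0.00294). The part of endothelial content in the Klf2 and Klf4 differences was not tested. Within groups Klf2 showed little relation to the summed endothelial level (r = -0.0377 over 39 libraries), as did Klf4 (-0.217, and 0.146 over the 36 larger ones). This was not so for all members. Klf3 had an r of 0.377 with that level over 39 libraries and 0.436 over the 36. With the summed macrophage level the r over 39 and 36 libraries was -0.0703 and -0.529 for Klf3 and -0.5 and -0.417 for Klf7. It was 0.613 and 0.163 for Klf4, and 0.107 and 0.168 for Klf2.

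Of 6 tested endothelial genes that KLF2 or KLF4 is known to raise, 0 passed in S6K1i-HDL against PBS in edgeR (2 with an unadjusted p under 0.05, 0 in DESeq2 and limma-voom), with a median of -0.086 and Tek lowest in p (-0.47, adjusted p = 0.119). In mTORi-HDL against S6K1i-HDL 4 of 6 were higher, beside 3.5% of all tested genes, with a median of 0.578: Cdh5, Tek, Thbd (0.48 ± 0.14, adjusted p = 0.0332) and S1pr1 (0.54 ± 0.17, 0.0419). Thbd encodes thrombomodulin, an anticoagulant, and Cdh5 and Tek stand on the marker list too. DESeq2 called 2 of the 6. Of 6 tested genes that these factors are known to lower, 1 was higher and 0 lower in S6K1i-HDL than in PBS. The median was -0.00631, and 5.46% and 6.47% of all tested genes passed as higher and lower. For mTORi-HDL against PBS 1 was higher and 0 lower, beside 1.64% of all tested genes in either direction, with a median of 0.175. Both calls were Sele, the adhesion molecule E-selectin, at 0.89 ± 0.28 (adjusted p = 0.0327 in edgeR) and 1.38 ± 0.27 (adjusted p = 0.00472). In these 2 comparisons Klf2 stood at -1.15 (adjusted p = 0.00193 in edgeR) and 0.31 (adjusted p = 0.469). A link between Klf2 and Sele was not tested.

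**Figure D5:**
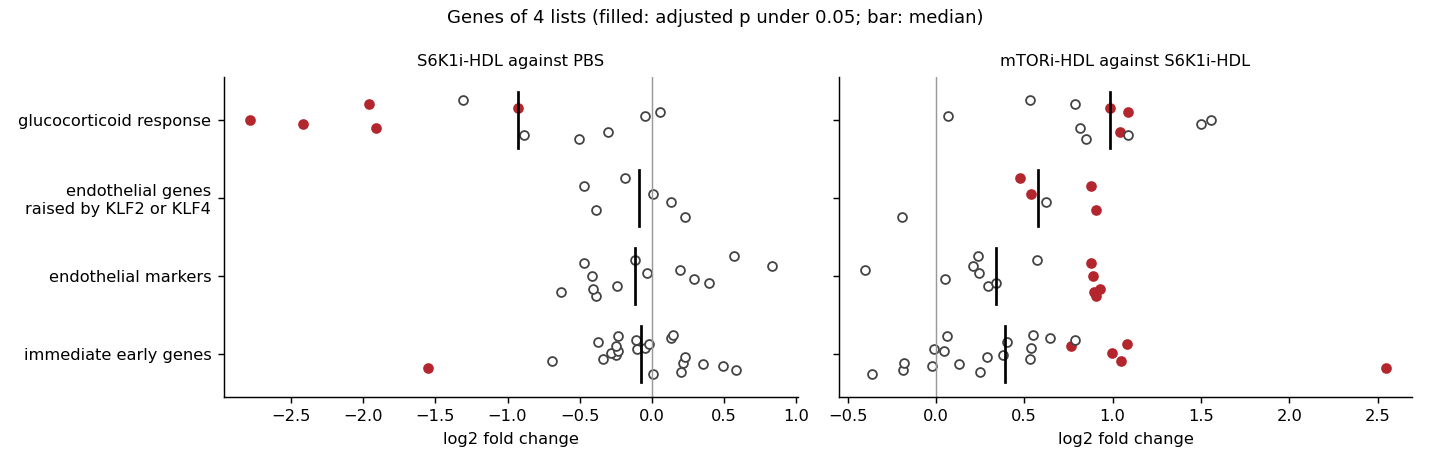
Log2 fold change (horizontal axes) of each tested gene of 4 lists in S6K1i-HDL against PBS and in mTORi-HDL against S6K1i-HDL. Filled points have an adjusted p under 0.05 and the vertical bars are list medians; the glucocorticoid list has its median at -0.93 in the first comparison and 0.987 in the second.

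Genes known to act upstream of members are given beside the 11.9% of all tested genes that passed in S6K1i-HDL against PBS. In the MEK5-ERK5-MEF2 pathway, which induces Klf2 and Klf4, 1 of 7 tested genes was higher in S6K1i-HDL than in PBS and 0 lower: Mef2d, a MEF2 factor, at 0.80 ± 0.20 (adjusted p = 0.00562), in the comparison where Klf2 fell. DESeq2 called 3 of the 7 and limma-voom 2. Among 13 tested FOXO factors and targets 3 were higher and 1 lower in S6K1i-HDL than in PBS, with Irs2, an insulin receptor substrate (1.18 ± 0.31, adjusted p = 0.0105), Bcl6, a repressor (0.54 ± 0.16, 0.0214) and Foxo3 (0.64 ± 0.20, 0.0276) among the higher. In mTORi-HDL against S6K1i-HDL 0 of the 13 were higher and 2 lower, beside 3.5% and 2.68% of all tested genes. The lower ones were Txnip (-1.19 ± 0.30, adjusted p = 0.0102) and Sesn1 (-0.47 ± 0.15, 0.0416). FOXO1 is known to drive Klf2 in mouse T lymphocytes, and T and NK cell markers were scarce here, with 1 of 9 passing the filter.

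Of 4 tested Sp factors, relatives that bind the same GC-rich sites, 1 was higher in S6K1i-HDL than in PBS, Sp2 (0.62 ± 0.19, adjusted p = 0.0277 in edgeR). In that test 0 were lower, yet the median of the 4 was -0.142. Of the 4, 3 had an unadjusted p under 0.05, DESeq2 called 1 and limma-voom 3. Of 13 tested genes of the TGF-beta response, which induces Klf10, 1 was higher, Tgfb1 itself (0.92 ± 0.24, 0.0106), while Klf10 stood at 0.36 ± 0.24 (0.336). Between mTORi-HDL and S6K1i-HDL 1 of the 13 was higher in mTORi-HDL and 0 lower, beside 3.5% and 2.68% of all tested genes. It was Smad7, an inhibitor of the TGF-beta pathway (0.69 ± 0.18, adjusted p = 0.0127 in edgeR). The median of the list was 0.285, 9 genes had an unadjusted p under 0.05, and DESeq2 called 2 and limma-voom 6. Of 4 other tested Klf genes 0 passed in S6K1i-HDL against PBS in edgeR, DESeq2 or limma-voom, and 1 had an unadjusted p under 0.05, Klf15 (-1.26 ± 0.57, adjusted p = 0.142). This glucocorticoid target was higher in TRAF6i-HDL than in mTORi-HDL (4.90 ± 4.49 against 1.11 ± 1.38 CPM, log2 fold change 2.18 ± 0.55, adjusted p = 0.0194). It was the 1 call of the 4 there, beside 2.92% of all tested genes in either direction.

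Immediate early genes, which respond quickly to stimuli and among which Klf2, Klf4, Klf6 and Klf10 are often counted, gave 1 lower and 0 higher of 22 in S6K1i-HDL against PBS, Dusp1, a phosphatase of MAP kinases that glucocorticoids also induce (-1.55 ± 0.43, adjusted p = 0.0162). Of all tested genes 6.47% passed as lower, so 1 of 22 does not set the list apart. In mTORi-HDL against S6K1i-HDL 5 of 22 were higher and 0 lower, beside 3.5% and 2.68% of all tested genes. They were led by Dusp1 (2.55 ± 0.43, adjusted p = 0.000271), Maff (1.08 ± 0.25, 0.0043) and Fos (1.05 ± 0.27, 0.013). The median of the list was 0.39, beside 0.611 for the 8 Kruppel-like factors and 0.00562 for all tested genes.

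Other cell types were checked by their markers in the 3 comparisons where members passed. Of all tested genes 11.9% passed in S6K1i-HDL against PBS, 6.18% in mTORi-HDL against S6K1i-HDL and 1.59% in TRAF6i-HDL against S6K1i-HDL. Against PBS in S6K1i-HDL, 2 of 14 macrophage markers were lower and 0 higher, Ctss (-1.34 ± 0.30, adjusted p = 0.00322) and Cd14 (-0.75 ± 0.21, 0.0132). The median log2 fold change of the 14 was 0.0309, while their summed level was lower. It had a median of 12110 CPM in S6K1i-HDL and 17650 CPM in PBS. Of the 14, 7 had an unadjusted p under 0.05 in edgeR, and DESeq2 and limma-voom each called 5. In the same comparison 1 of 7 smooth muscle markers was higher, Smtn (1.47 ± 0.30, 0.00208), and 1 of 7 fibroblast markers was lower, Dpt (-0.65 ± 0.18, 0.0147). The single tested B cell marker, Cd22, was higher (0.87 ± 0.20, 0.00307), and the single tested adipocyte marker, Fabp4, which foam cells also express, was lower (-1.57 ± 0.35, 0.00407). Adipoq and Plin1, which define adipocytes, were at 0 in every library of PBS, TRAF6i-HDL and mTORi-HDL. Both had counts in S6K1i-HDL, the deepest group. There all 7 adipocyte markers in the files summed to a mean of 78.85 CPM, and Fabp4 alone averaged 78.35. T and NK, neutrophil, mast cell, cardiomyocyte, erythroid and platelet and chondrocyte lists had 1, 2, 1, 1, 2 and 4 tested genes with no call in edgeR, DESeq2 or limma-voom in that comparison and none with an unadjusted p under 0.05. In mTORi-HDL against S6K1i-HDL 2 of 14 macrophage markers were higher and 3 lower, and 1 of 3 tested genes of alternative activation, a macrophage state that KLF4 promotes, was higher: Chil3 (1.44 ± 0.42, adjusted p = 0.0301). In the same comparison Cd22 was lower (-1.02 ± 0.18, adjusted p = 0.000258), and the single tested T cell marker, Cd3e, stood at -1.34 ± 0.43 (adjusted p = 0.0508), a difference that DESeq2 and limma-voom called. Between TRAF6i-HDL and S6K1i-HDL 1 of 14 macrophage markers was higher, Cd14 (0.96 ± 0.20, adjusted p = 0.00965), and no marker of the other cell types passed in edgeR. There Pecam1, an endothelial marker, stood at 0.71 ± 0.21 (adjusted p = 0.0645) and Fabp4 at 1.27 ± 0.35 (adjusted p = 0.0514). Of 13 endothelial markers 4 had an unadjusted p under 0.05 in that comparison, and DESeq2 and limma-voom each called 1. The part of these cell types in the differences of the members was not tested.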

How the data were processed

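The authors deposited whole-number counts of reads per gene symbol for each of 39 libraries. Of tools, the submitters' processing notes list HTSeq 0.6.1, TopHat2 2.1.0 and Bowtie2 2.2.8 without saying what each did, and they list a human genome build that cannot lie behind mouse symbols; aligner settings, annotation and strand setting are not given in the sources used here, so reads of overlapping and antisense genes cannot be told apart. Rows that name no gene held 61.4% to 77.5% of counts per library and were left out. Groups were taken from the labels. Low-count genes were removed with edgeR's filterByExpr, libraries were scaled by TMM, and all 4 groups were fitted together with edgeR 4.0.16 (quasi-likelihood test, R 4.3.3), with Benjamini-Hochberg adjustment over 10411 genes and a threshold of 0.05. Values are TMM-scaled CPM. DESeq2 1.42.0 and limma-voom (limma 3.58.1) were alternatives, with other scalings and filters, a replicate block, covariates for detected genes and for the Rn45s share, the 2 groups alone, the sets listed apart, and each library left out in turn. The gene lists were refitted under 5 of these settings, chosen after seeing the data. The members and lists were chosen with earlier results of these data known. All members are named; of each list, up to 3 genes past the threshold are named, by smallest p, or, where none passed, the gene with the smallest p, and any other gene named, such as S1pr1, Nr3c1, Cebpd, Ddit4, Adipoq and Plin1, was chosen after its values were seen. Genes like a member were ranked by Pearson's r of log2 CPM with group means removed. Exon lengths per gene came from the reference annotation. The scripts were tested on simulated counts. The closest pair of libraries in a group differed by more than sampling noise, so none was dropped as a repeat of another. That check cannot show whether samples come from different mice. CD68 guided the capture, so Cd68 is no finding. The result of 1 gene list is not reported here.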

Additional observations from a re-analysis of the deposited data

Results flagged for a closer look

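In 7 of 32 groups of values (8 genes in 4 groups) the highest or lowest library stood apart from the others by Dixon's test, where chance gives about 1 in 20. Of these, 3 were in the smallest libraries: Klf2 at 0.0 CPM in S6K1i-HDL replicate 1 (0 of 118527 counts, next 10.96 CPM), Klf7 at 25.28 CPM in PBS replicate 9 (2 of 50091 counts, next 13.31) and Klf10 at 77.42 CPM in TRAF6i-HDL replicate 7 (8 of 66602 counts, next 26.33). mTORi-HDL replicate 5 stood apart in both Klf9, at 107.7 CPM (249 counts, next 35.79), and Klf13, at 93.43 CPM (216 counts, next 63.87). Klf6 stood at 409.0 CPM in S6K1i-HDL replicate 9 (2337 counts, next 294.7), and Klf13 at 53.18 CPM in S6K1i-HDL replicate 5 (168 counts, next 42.05).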

How the results depend on the processing

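Of 574 pairs of a gene's difference and an alternative, 520 kept direction and side of the threshold, 14 lost the threshold, 17 passed it and 23 turned sign. The count of members past the threshold moved in S6K1i-HDL against PBS from 2 to 4 (limma-voom), 1 (detected genes) and 0 (Rn45s share; replicates 7 to 9 alone), and to 2 to 3 with a library left out. In TRAF6i-HDL against mTORi-HDL it moved from 0 to 1 (DESeq2; Rn45s share) and 2 (limma-voom), and to 0 to 1 with a library left out. In TRAF6i-HDL against S6K1i-HDL it moved from 1 to 2 (DESeq2; limma-voom; the 2 groups alone) and 0 (both covariates), and to 0 to 2 with a library left out. In mTORi-HDL against S6K1i-HDL it was 4, became 2 in each pair of sets listed apart, 3 with DESeq2 size factors, 5 with DESeq2, 6 with limma-voom and with the 2 groups alone, and 4 to 5 with a library left out. Same-numbered samples did not deviate together (r from -0.208 to 0.287), so the numbers share only a name; with them as a replicate block the counts were 2 in S6K1i-HDL against PBS, 4 in mTORi-HDL against S6K1i-HDL and 0 in TRAF6i-HDL against S6K1i-HDL, and all genes called were 1062, 552 and 84. Over all genes, calls in S6K1i-HDL against PBS went from 1242 to 1922 (limma-voom), 350 (detected genes) and 38 (Rn45s share), in mTORi-HDL against PBS from 171 to 407 (DESeq2), 368 (limma-voom), 93 (2 groups), 82 (detected genes) and 21 (Rn45s share), and in TRAF6i-HDL against PBS from 2 to 49 (DESeq2). Between inhibitors they went from 304 to 606 (limma-voom) for TRAF6i-HDL against mTORi-HDL, from 166 to 688 (limma-voom), 348 (DESeq2), 283 (2 groups), 66 (detected genes) and 30 (Rn45s share) for TRAF6i-HDL against S6K1i-HDL, and from 643 to 1850 (limma-voom) and 1094 (2 groups) for mTORi-HDL against S6K1i-HDL. Sign changes came in log2 fold changes that passed in none of the fits above, except Klf6 in S6K1i-HDL against PBS, which passed with limma-voom (adjusted p = 0.0336, over a range of 0.0336 to 0.995). In TRAF6i-HDL against PBS these were Klf4 (-0.00063 with the replicate block, -0.0203 without the small libraries, -0.0418 to 0.122 with a library left out), Klf6 (0.00709, Rn45s share), Klf10 (0.0532 limma-voom, 0.0138 detected genes, 0.175 Rn45s share, -0.135 to 0.0698 with a library left out) and Klf13 (0.00863 DESeq2 size factors, 0.0149 DESeq2, 0.115 Rn45s share, 0.0123 without the small libraries, -0.0831 to 0.0398 with a library left out). In mTORi-HDL against PBS they were Klf9 (0.363 Rn45s share, 0.0163 replicates 5 to 10, -0.663 to 0.0525 with a library left out) and Klf10 (0.0168 limma-voom, 0.0178 no filter, 0.0097 replicate block, 0.092 detected genes, 0.269 Rn45s share, 0.126 replicates 1 to 4, -0.0856 to 0.101 with a library left out). The others were Klf6 in S6K1i-HDL against PBS (0.0169, replicates 7 to 9), Klf10 in TRAF6i-HDL against mTORi-HDL (0.0113 DESeq2 size factors, 0.0262 DESeq2, 0.0364 limma-voom, -0.132 to 0.0402 with a library left out) and Klf3 in TRAF6i-HDL against S6K1i-HDL (0.00843, Rn45s share). The cause of these changes was not tested.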
